A study of Drosophila melanogaster with 4 samples.

Results

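The regions described here are those enriched for H3K36me3, histone H3 trimethylated at lysine 36, on the X chromosome of Drosophila melanogaster. They were taken as every region placed on X in the deposited lists, with no choice by score or width. That gave 770 of 4238 regions in replicate 1, 800 of 4320 in replicate 2 and 788 of 4468 in a series-level list, 2358 of 13026 entries in all. The samples were wild-type embryos of the laboratory strain Oregon-R aged 14 to 16 h, a late embryonic stage, and the labels give no other genotype or treatment. The 4 libraries were 2 H3K36me3 chromatin immunoprecipitation (ChIP) libraries and 2 input libraries. Per the labels the inputs share replicate numbers with the ChIP libraries, and no values of their own were analysed here. Whole embryos of unstated sex were used, so a mark in fewer cells and a weaker mark per cell cannot be told apart. Nothing in the labels tells whether the 2 replicates came from different collections of embryos, and their spread may thus be technical.

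H3K36me3 is laid down by the Set2 methyltransferase, which travels with elongating RNA polymerase II, and the mark is therefore known for lying over the bodies of transcribed genes. On the fly X it is also known for dosage compensation, in which the MSL complex binds active X-linked genes in males and raises their transcription. Its MSL3 subunit has a chromodomain that recognises nucleosomes carrying H3K36me3. X is numbered from its telomeric end towards the centromere. Positions are given as in the deposited lists, on FlyBase release 5. The genes under the regions were not analysed here, since no annotation of that release was used.

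X carried closely spaced regions of ordinary width, with a smaller share of very wide ones than the autosomal arms set beside it. Regions covered 4.23 Mb of the 22.4 Mb of X in replicate 1 and 3.88 Mb in replicate 2. That was 18.1% ± 1.11 of X (SD, n = 2), against 16.4% ± 0.915 of 2L, 17.2% ± 0.861 of 3L and 18.4% ± 0.905 of 3R (SD, n = 2 each). The ratio of X to the 3 arms together was 1.04 ± 0.0106 (SD, n = 2). Arms of 1 list share its library, so they are best read within a list. In replicate 1, 18.9% of X was covered, against 17.1% of 2L, 17.9% of 3L and 19.0% of 3R, and in replicate 2 17.3% of X, against 15.8%, 16.6% and 17.7%. X thus lay above 2L and 3L and below 3R in both lists. An exact permutation test of 2 values against 2 ignores that sharing and cannot give a two-sided p below 0.333, so no difference between arms was tested.

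Region density was highest on X. There were 34.3 regions per Mb in replicate 1 and 35.7 in replicate 2 on X, against 30.4 and 30.8 on 2L, 31.7 and 33.2 on 3L, and 33.3 and 34.3 on 3R. The order of the arms was the same in both replicates. Neighbouring regions also lay closer. The median distance to the next region was 4492 bp in replicate 1 and 4371 bp in replicate 2 on X, against 5807 and 5025 bp over 2L, 3L and 3R. The shortest of these arm medians was 4812 bp, on 3L in replicate 2, so X was below each of the 3 arms in each replicate.

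The narrowest X region had 1313 bp and the widest 40639 bp in replicate 1, and 1302 and 23384 bp in replicate 2. The medians were 4610 and 4144 bp on X, against 4606 and 4243 bp over 2L, 3L and 3R. The middle of the distribution was thus alike, and the upper end was shorter on X. The upper quartile of width was 6783 and 6058 bp on X, against 7190 and 6318 bp on the 3 arms, and the 90th percentile was 9739 and 8429 bp on X, against 10394 and 9049 bp.

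**Figure D1:**
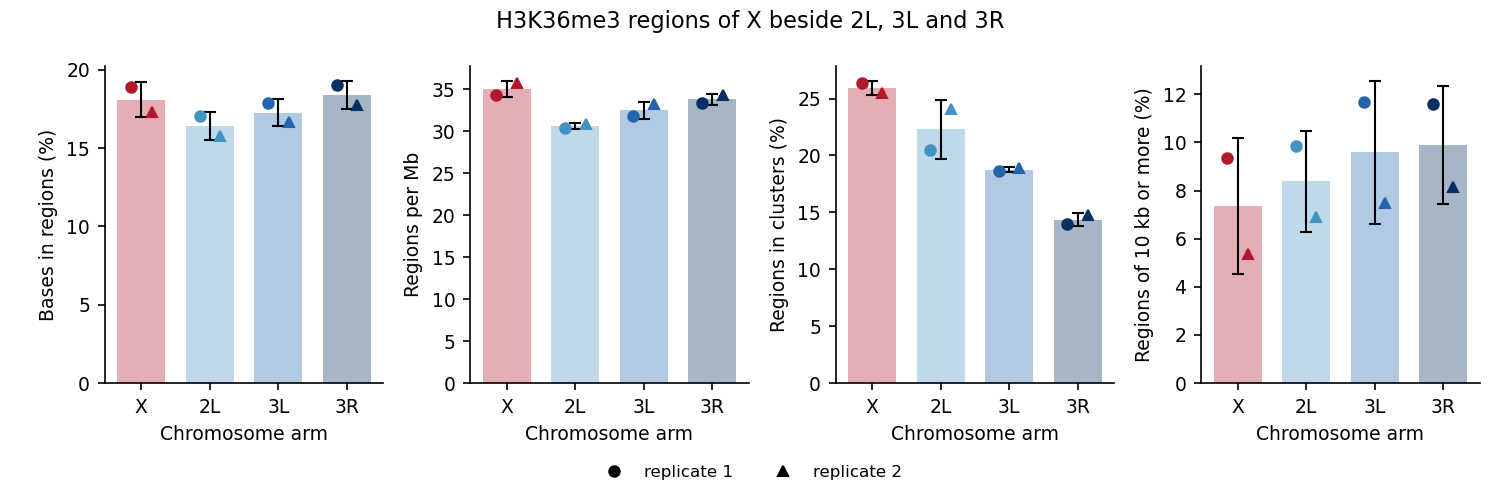
Covered share, regions per Mb, share of regions in clusters and share of regions of 10 kb or more on X, 2L, 3L and 3R, with circles for replicate 1, triangles for replicate 2, bars for their mean and error bars for ± 1 SD (n = 2). X has the highest density (34.3 and 35.7 regions per Mb) and the highest share in clusters (26.4% and 25.5%), and in each replicate the lowest share of regions of 10 kb or more (9.35% and 5.38%).

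Along X the mark came in rich and poor megabases with like totals on both sides of its midpoint. From its first base to the midpoint at base 11211413, X was covered to 18.8% and 17.3% in replicates 1 and 2. From there to the last base of the sequence it was covered to 19.0% and 17.3%. On 2L the first part up to its midpoint was covered to 20.8% and 19.5% and the rest to 13.3% and 12.03%. On 3L the same parts had 19.4% and 18.1%, then 16.4% and 15.2%, and on 3R 19.3% and 18.0%, then 18.7% and 17.5%. Full blocks of 1 Mb on X ranged from 10.3% to 30.5% of bases covered, as the mean of the replicates, with a median of 18.8% over 22 blocks. The lowest full block of X was above the lowest of 2L (4.52%), 3L (5.53%) and 3R (7.95%).

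The richest block lay at X:15000001-16000000 with 50 regions over 31.2% of its bases in replicate 1 and 52 over 29.7% in replicate 2. The next were X:11000001-12000000, at 29.3% and 26.4%, and X:16000001-17000000, at 27.8% and 24.98%. Of the 3 richest megabases, 2 were thus neighbours. The poorest stretch was the shorter last block at the end of the X sequence, X:22000001-22422827. There 1 region held 1.39% of bases in replicate 1, and 2 regions held 1.63% in replicate 2. The poorest full blocks were X:3000001-4000000, at 10.7% and 9.92%, and X:12000001-13000000, at 11.6% and 9.97%. Almost level with the latter was X:20000001-21000000, at 11.5% and 10.2%. X:12000001-13000000 follows directly on the second richest block. It had 24 and 23 regions in replicates 1 and 2, with 0 of 10 kb or more, against 53 and 53 in the block before it. The median region score in it was 1.54 and 1.58, against 1.65 and 1.66 in the block before it, so these neighbours differed far more in number of regions than in score. The score is the value the authors deposited for each region, in a unit that they do not state.

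**Figure D2:**
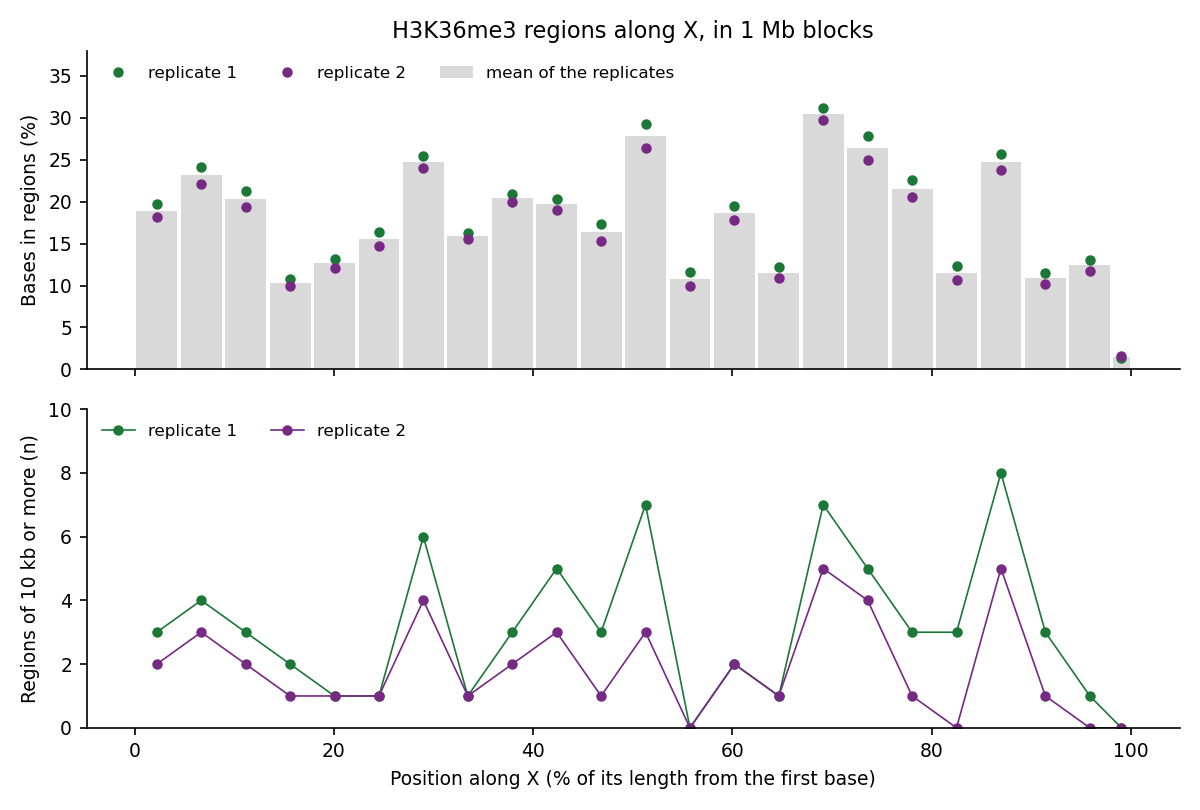
Upper panel, percent of bases in regions in 1 Mb blocks of X for replicate 1 (green), replicate 2 (purple) and their mean (grey bars); lower panel, number of regions of 10 kb or more per block. Position is in percent of the length of X from its telomeric end, and the last block is shorter. Full blocks range from 10.3% to 30.5%, both replicates follow the same course, and the block with the most wide regions holds 8 in replicate 1 and 5 in replicate 2.

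At a finer scale, the likeness between neighbours faded within a few bins. In 224 bins of 100 kb on X, the covered share of a bin and of the next one had a correlation of 0.25 in replicate 1 and 0.26 in replicate 2. At a distance of 2 bins it was 0.086 and 0.078, and at 3 bins -0.0085 and -0.012. These correlations describe bins of 1 library that share its depth and its calls. Of the 224 bins, 41 held no base of any region in replicate 1 and 41 in replicate 2, or 18.3%, against 15.8% to 21.3% of bins on the 3 arms in replicate 1 and 17.6% to 23.9% in replicate 2. The fullest bin was X:19500001-19600000 in replicate 1, at 81.2%, and X:15600001-15700000 in replicate 2, at 76.8%. Each lies over one of the clusters of regions named further on.

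Wide domains, taken as regions of 10 kb or more, numbered 72 in replicate 1 and 43 in replicate 2 on X. They made up 9.35% and 5.38% of the X regions, against 11.1% and 7.58% of the regions of 2L, 3L and 3R. Within each replicate, the X share was below that of each arm, the nearest being 2L at 9.87% and 6.91%. The SD between replicates was 2.81 percentage points on X, larger than the difference between X and the arms, so the ranking holds within a replicate and not across them. Wide domains held 22.6% and 14.2% of the covered bases of X, against 26.6% and 19.2% on the 3 arms. Around the 10 kb limit, widths ran on without a break, with 9915 bp just below and 10015 bp just above it in replicate 1, and 9948 and 10060 bp in replicate 2. The count depends on where a region is taken to end: with regions within 1 kb of each other merged, the mean of the replicates was 122, against 57.5 unmerged, and with limits of 8 and 15 kb it was 111.5 and 10.

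The longest replicate 1 domain that matched a single replicate 2 region by 50% of both lengths lay at X:15607871-15632863. It was 24993 bp wide with a score of 2.29, and its partner was 23384 bp wide with a score of 2.19. X:19367435-19389374 followed with 21940 bp and a score of 2.14, met in replicate 2 by 2 regions of 18854 bp together. X:2119142-2138368 was 19227 bp wide in replicate 1 and 19124 bp in replicate 2, with scores of 2.26 and 2.17, so both libraries drew almost the same domain. The other 7 of the 10 longest matched domains were 15266 to 18118 bp wide, with scores from 1.97 to 2.43. They began at 6177601, 14119921, 3844888, 531914, 19514342, 20268905 and 13179757, and so were scattered over the whole of X. Of the 72 wide domains of replicate 1, each was met by a replicate 2 region, 42 by one that was itself at least 10 kb wide, and 28 by more than 1 region. All 43 wide domains of replicate 2 met a wide domain of replicate 1. None of either list was without a counterpart, and on 2L, 3L and 3R all 268 and 188 such regions were likewise met. The lowest share of a replicate 1 wide domain of X lying in replicate 2 regions was 78.9%.

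The widest region of any arm set beside X, or of X itself, was X:1750885-1791523, at 40639 bp and a score of 1.99 in replicate 1. The widest region of 2L, 3L and 3R in that replicate had 27892 bp. In replicate 2 the domain fell into 3 pieces of 7934, 14544 and 17330 bp, with scores of 1.69, 1.77 and 1.89. The gaps between them were 572 and 100 bp, and the pieces together held 98.0% of the replicate 1 domain. In the series-level list it was 1 region of 40727 bp. The next longest domains that replicate 2 split were X:19367435-19389374, X:6177601-6195718, X:14119921-14137343 and X:9560972-9576631, each into 2 pieces that covered 85.6%, 99.2%, 98.5% and 92.4% of it.

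Clusters were more frequent on X than on the autosomal arms. A cluster was taken as 5 or more regions in a row with at most 5 kb between neighbours. X had 31 clusters in replicate 1 and 30 in replicate 2, against 22 and 26 on 2L, 24 and 24 on 3L, and 21 and 23 on 3R, which are all longer than X. Of the X regions, 203 of 770 (26.4%) and 204 of 800 (25.5%) lay in clusters, against 17.4% and 18.8% over the 3 arms. The mean was 25.9% ± 0.611 on X, against 22.3% ± 2.59 on 2L, 18.8% ± 0.199 on 3L and 14.4% ± 0.545 on 3R (SD, n = 2 each). X was above each arm in each replicate. The nearest arm was 2L, which in replicate 2, at 24.1%, came close to X. In the series-level list the share was 23.1% on X, against 17.6% on 2L, 18.1% on 3L and 15.2% on 3R.

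The cluster share depends on the definition, and its excess on X did not turn under the definitions tried. It was 6.82% of X regions with gaps of at most 2 kb, 47.0% with gaps of at most 10 kb and 11.9% once regions within 1 kb had been merged. The ratio of X to the 3 arms was 1.44 ± 0.114 (SD, n = 2) as defined, and 1.302, 1.34 and 2.39 under those settings. X was not compared with single arms under them, so whether it stayed above 2L, the nearest arm, is not known. Gaps under 1 kb, which the merged setting removes, were 23.1% and 22.0% of the gaps on X and 21.1% and 24.0% on the 3 arms.

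The X cluster with the most regions spanned 98.3 kb at X:19503804-19602137. It held 13 regions in replicate 1 that covered 84.7% of it, 3 of them 10 kb or more, with scores from 0.481 to 2.25. In replicate 2 the same place, X:19503698-19601877, held 14 regions and was covered to 78.9%. The largest cluster of 2L held more, 17 regions in each replicate, while those of 3L and 3R held 10 to 13. The cluster at X:7780695-7858789 held 12 regions in 78.1 kb, none of 10 kb or more, with a median width of 4784 bp, and replicate 2 had 11 regions there. X:15592552-15697188 was the longest of the leading clusters, at 104.6 kb with 11 regions in replicate 1 and 13 in replicate 2, and it contains the longest matched domain. A further 9 regions lay close by at X:15734981-15802828, covered to 84.2% in replicate 1 and 80.1% in replicate 2, with a highest score of 2.44 and 2.53. These last 2 clusters lie in the richest megabase of X. The fifth, X:21186747-21244855, had 8 regions in each replicate.

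Clusters took up 6.37% of X in replicate 1 and 6.00% in replicate 2, and 23 of the 31 and 23 of the 30 met a cluster of the other replicate. Regions in clusters were much like the others. Their median width was 4761 and 4331 bp, against 4573 and 4020 bp outside clusters, and their median score was 1.63 and 1.64, against 1.57 and 1.54 outside. Scores of adjacent X regions hardly ranked together, with a Spearman rho of 0.026 over 769 neighbours in replicate 1 and 0.029 over 799 in replicate 2. These neighbours include distant ones, since 52.7% and 53.3% of the gaps were within 5 kb, so the rho does not describe closely packed regions alone.

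Score and width went together on X. The median score of X regions was 0.509 below 2 kb, 1.38 from 2 to 5 kb, 1.80 from 5 to 10 kb and 2.00 from 10 kb in replicate 1, and 0.814, 1.44, 1.84 and 1.97 in replicate 2. Over all X regions the Spearman rho of width and score was 0.69 and 0.71, and it was 0.71 and 0.72 over the 3 arms. The wide and narrow classes therefore do not give separate evidence on score.

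The highest score of X in replicate 1 was 2.72, at X:2019216-2025557, and its replicate 2 partner scored 2.57. Next came X:7173794-7179450 with 2.56 and 2.25 in replicates 1 and 2, X:6119892-6129091 with 2.53 and 2.50, X:19144700-19154311 with 2.52 and 2.48, and X:1558664-1563635 with 2.48 and 2.19. The other 5 of the 10 highest had 2.43 to 2.45 in replicate 1. Each of the 10 had at least 1 partner in replicate 2, as had 94.4% of all X regions of replicate 1. Of the 10, 2 were 10 kb or more wide and 8 were narrower, while 9.35% of all X regions of replicate 1 were 10 kb or more. A top score was thus not limited to wide domains. The top of replicate 2 was another region, chosen here after its values were seen. X:17688248-17689634, only 1387 bp wide, had a score of 2.83, while the replicate 1 region over it was 2302 bp wide with 2.06 and the series-level one 2365 bp wide with 1.87. It was narrow and high-scored in replicate 1 too, where the 10th percentile of X widths was 2347 bp and the upper quartile of X scores 1.91, and it ranked first in replicate 2 alone.

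Low scores were rarer on X than on the autosomal arms, and its narrow regions scored higher. Among regions narrower than 2 kb, the median score in replicate 2 was 0.814 on X (61 regions), against 0.693 on 2L, 0.632 on 3L and 0.643 on 3R. The lower quartile on X, 0.7504, was above the upper quartile of each arm, which was 0.728, 0.682 and 0.687. In replicate 1 the medians were 0.509 on X (42 regions), against 0.443, 0.439 and 0.437, but the ranges overlapped widely. There the lower quartile on X was 0.439, below the upper quartiles of the arms at 0.506, 0.510 and 0.492. Of all regions, 88 of 770 on X had a score below 0.75 in replicate 1, or 11.4%, against 15.5% to 16.6% on the arms, and 17 of 800 in replicate 2, or 2.13%, against 7.48% to 9.45%. The median over all X regions did not stand apart in this way, at 1.59 and 1.57 on X, against 1.57 and 1.57 over the 3 arms. The limit of 0.75 was chosen after the scores were seen. Scores are compared here within a list, and the sources used here do not tell whether 1 threshold was used for all chromosomes.

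**Figure D3:**
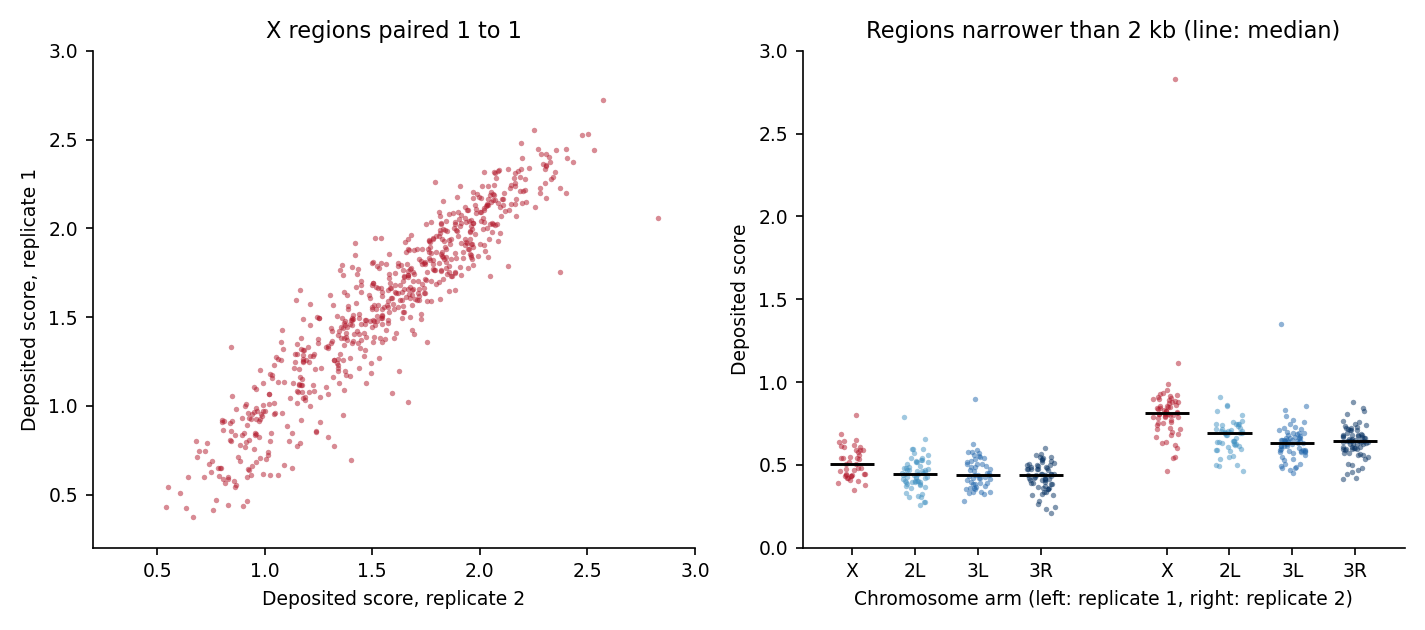
Left, deposited scores of 648 X regions that pair 1 to 1 between replicate 1 (vertical) and replicate 2 (horizontal); right, scores of regions narrower than 2 kb on X, 2L, 3L and 3R in each replicate, with a line at the median. Paired scores rank alike, with the 1387 bp region at 2.83 standing apart at the right, and narrow X regions have medians of 0.509 and 0.814, above those of the 3 arms in both replicates.

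X also had long stretches free of regions in both replicates. Those of 100 kb or more numbered 56, adding up to 9.86 Mb or 44.0% of X, against 45.6% of 2L, 37.3% of 3L and 35.9% of 3R. Their median length was 156 kb on X, against 155, 175 and 159 kb on the arms. X had 2.50 such stretches per Mb, against 2.43, 1.91 and 2.19. Stretches of 200 kb or more numbered 13 on X and took up 16.9% of it, against 23.8% of 2L, 16.6% of 3L and 9.45% of 3R, so X and 2L were empty to a like share, with less of it in such long stretches on X. Of the 56, 28 began before the midpoint of X and 28 after it, and none reached an end of the X sequence. The first region began at base 1693 and the last ended at base 22418835 of 22422827. The files hold no value outside regions, so an empty stretch may hold weak enrichment or sequence that reads could not be placed on.

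The longest empty stretch was X:20396279-20896038, at 499.8 kb. The next were X:21945176-22383188 (438.0 kb), X:11922652-12352753 (430.1 kb), X:21500292-21846173 (345.9 kb) and X:7238060-7564912 (326.9 kb). Of these 5, 3 lay beyond base 20000001, towards the centromere. The next 5 were X:18787935-19028900, X:18030624-18266140, X:9677229-9904645, X:4975751-5200089 and X:2632998-2841826, at 241.0 to 208.8 kb. X:11922652-12352753 began inside the second richest megabase, where a 10165 bp region borders it, and ran on into the poor block after it. The series-level list put 7 regions into 7 of the 56 stretches, 8.51 kb in all, with scores of 0.429 to 0.676.

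**Figure D4:**
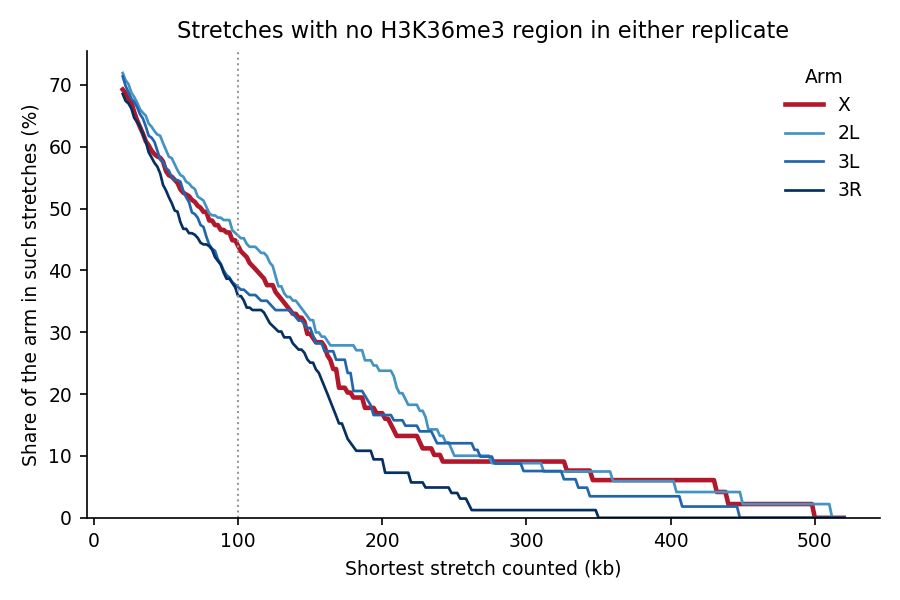
Percent of each arm lying in stretches without a region in either replicate, as the shortest stretch counted grows from 20 kb; the dotted line marks 100 kb. At 100 kb X (44.0%) lies just under 2L (45.6%) and above 3L (37.3%) and 3R (35.9%), and the longest stretch of X is 499.8 kb.

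Between these stretches X was filled more densely than the other arms. Outside them, 33.7% of X was covered in replicate 1 and 30.9% in replicate 2, against 31.4% and 29.0% of 2L, 28.5% and 26.5% of 3L, and 29.6% and 27.6% of 3R. This follows from a covered share like that of 3R and an empty share like that of 2L. Very full places were rarer on X than on the other arms. Bins of 100 kb covered to more than 50% were 2.68% and 2.23% of X bins in replicates 1 and 2. On the 3 arms they were 4.49% to 5.38% in replicate 1 and 3.04% to 3.94% in replicate 2. The longest run with no empty stretch was X:1558664-2632997, 1074 kb with 61 and 64 regions in replicates 1 and 2. It contains the widest domain and the highest score of replicate 1. Runs of 753, 705 and 699 kb began at 10106490, 11217428 and 16159415, with 36, 46 and 51 replicate 1 regions.

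Single regions also stood alone between 2 empty stretches, in 4 of the 55 places where such stretches follow each other. The smallest of these islands was X:13891629-13893521, with scores of 0.423 in replicate 1 and 0.634 in replicate 2. The others were X:14365947-14369062 (1.09 and 0.958), X:3231885-3236212 (0.860 and 1.24) and X:14474112-14482490 (1.48 and 1.52). Each was found in both replicates. Of these, 2 are 105 kb apart in the block from 14 to 15 Mb, whose median score of 1.15 in replicate 1 was the lowest of the 22 full blocks. Regions with no neighbour within 50 kb numbered 11 and 9 on X, 1.43% and 1.13% of its regions, against 2.49% and 2.02% over the 3 arms. Every one of these X regions was found in both replicates, as were 94.4% and 99.3% of all X regions.

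The replicates marked almost the same bases of X. Of 4.27 Mb covered in either, 3.84 Mb was covered in both, or 89.8%, against 90.4% on 2L, 91.6% on 3L and 91.3% on 3R. Replicate 2 lay inside replicate 1, with 98.9% of its X bases there, while 90.7% of the replicate 1 bases lay in replicate 2. At least 1 base was shared by 727 of 770 replicate 1 regions (94.4%, 95% Wilson interval 92.6 to 95.8) and by 794 of 800 replicate 2 regions (99.3%, interval 98.4 to 99.7), against 93.4% and 99.1% of the regions of the 3 arms. X was thus close to the arms in the number of regions found again. The intervals cover counting error only.

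Edges and scores differed more between replicates on X. Among 648 X regions that met exactly 1 partner, the replicate 1 region was wider in 579. Over all 648 pairs, the median of replicate 1 width minus replicate 2 width was 257 bp. On 2L, 3L and 3R it was 202, 205 and 212 bp. Both edges agreed to within 200 bp in 280 of 648 pairs on X (43.2%), against 55.7%, 56.9% and 52.4% on the arms. Within 100 bp the shares were 16.2% on X against 21.0%, 25.2% and 21.8%, and within 500 bp 81.9% against 90.2%, 89.3% and 87.6%. The shift was much the same at both ends of a region, since on X the median outward shift of replicate 1 was 113 bp at the start and 120 bp at the end. The score difference of a pair, replicate 1 minus replicate 2, had an SD over pairs of 0.177 on X, against 0.144, 0.144 and 0.142. Pearson's r of the paired scores was 0.935 on X, against 0.959, 0.962 and 0.964. These values describe 2 libraries, and with 1 pair of libraries they have no replicate check.

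X regions without a counterpart in the other replicate were narrow, with low scores. In replicate 1 there were 43, with medians of 1798 bp in width and 0.581 in score, while the shared regions had 4758 bp and 1.63. In replicate 2 there were 6, with medians of 1650 bp and 0.884, while the shared regions had 4158 bp and 1.57. Among replicate 1 regions below 2 kb, 17 of 42 were found again, as were 374 of 392 from 2 to 5 kb, all 264 from 5 to 10 kb and all 72 above that. The 3 arms were alike. Below 2 kb, 40.5% were found again on X and 38.1% on the arms, and from 2 to 5 kb 95.4% and 95.5%. All arm regions of 5 kb or more were found again. Unshared arm regions had medians of 1771.5 bp and 0.498 in replicate 1, and 1542 bp and 0.664 in replicate 2. The longest unshared replicate 1 regions were X:12663608-12666945 (3338 bp, score 0.673), X:5601097-5604392 (3296 bp, 0.844), X:9262512-9265438 (2927 bp, 0.761), X:12838546-12841351 (2806 bp, 0.652) and X:10835524-10838264 (2741 bp, 0.769). Among them, 2 lie in the block from 12 to 13 Mb, where the share of bases covered in both replicates was 84.8%, the lowest of the 22 full blocks. The longest of replicate 2 were X:2415971-2418343 (2373 bp, 0.786), X:3757443-3759462 (2020 bp, 0.923), X:15808656-15810325 (1670 bp, 0.897), X:17321371-17322999 (1629 bp, 0.891) and X:21907073-21908637 (1565 bp, 0.858). The nearest replicate 1 region was 4935 to 30970 bp away from these.

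The series-level list held 788 X regions over 4.39 Mb, or 19.6% of X, more than either replicate. Of these regions, 710 met both replicates, 40 met replicate 1 alone, 6 met replicate 2 alone and 32 (4.06%) met neither, against 4.10% that met neither on the 3 arms. Median width and score were 1358 bp and 0.445 among the 32, and 5029 bp and 1.58 among those that met both. The longest of the 32 were X:19618994-19621958 (2965 bp, 0.448), X:16969146-16971372 (2227 bp, 0.405), X:21863562-21865286 (1725 bp, 0.418), X:9111568-9113266 (1699 bp, 0.362) and X:5962814-5964474 (1661 bp, 0.352). The nearest replicate region lay 213 to 11215 bp from these 5.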

How the data were processed

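The data were lists of H3K36me3-enriched regions. Per the submitters' processing notes, reads were handled with Bowtie 0.12.7. Per the file headers, positions are on FlyBase release 5. How regions were called, at which threshold, and how the series-level list was made: not given in the sources used here. Each region has a start, an end and a score that the authors deposited, with no stated unit. No counts are given, so depth is unknown. Computations used scipy 1.17.1, pandas 2.3.3, numpy 2.4.6 and Python 3.11.15. One 3L region ran past the sequence end by 922, 823 and 1007 bases in replicates 1 and 2 and the series-level list, and these bases were left out. Empty stretches are gaps between the joined regions of both replicates. Interval steps were tested on simulated data, with 0 of 301 checks failing. Members, measures and cut-offs were chosen with earlier results of these data known. The regions given by position were taken by rank of width, score or number of regions. A planned look at genes and sequence was not run, since only a gene table of release 6 was at hand. No p-values across arms were computed.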

Additional observations from a re-analysis of the deposited data

How the results depend on the processing

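Of 55 alternatives over 12 results, 28 stayed within the error of the value (for counts, within 1.5 times) and 27 did not. Leaving out 1 of 2 replicates moves their mean by less than the SD by construction, so for means it says nothing about stability. These settings are nevertheless counted among the 28, which therefore overstates how many results were stable. The higher-scored 50% of each list covered 11.9% of X at a ratio of 1.01 to the 3 arms, with a median width of 5664 bp. Replicates then shared 80.3% of bases, 88.6% of replicate 1 regions and 93.5% of replicate 2 regions, and empty stretches took up 57.3%; fewer regions enter there by construction. The series-level set gave 19.6% at a ratio of 1.05, 23.1% of regions in clusters, a ratio of 0.871 for regions of 10 kb or more, and 41.9% in empty stretches. Without the first and last 1 Mb of each arm the coverage ratio was 1.06. Merging within 1 kb gave a median width of 5328 bp, 122 domains of 10 kb or more at a ratio of 0.945, and 11.9% in clusters at a ratio of 2.39. An overlap of 50% of both lengths was met by 90.8% and 87.4% of regions. Cluster gaps of 2 and 10 kb gave 6.82% and 47.0%, with a ratio of 1.302 at 2 kb. Limits of 8 and 15 kb gave 111.5 and 10 domains, with a ratio of 0.565 at 15 kb. Empty stretches ranged from 44.1% to 44.9% without 1 replicate. The limits of 8 and 15 kb, merging for clusters and the settings for the ratios of clusters and of wide domains were added after the data were seen. Under each of them the cluster ratio stayed above 1 and the wide-domain ratio below 1. No paired analysis was possible because the input libraries that share replicate numbers with the ChIP libraries have no values of their own here.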
